A study of Homo sapiens with 12 samples.

Results

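The 10 genes described here are 5 bone morphogenetic protein (BMP) ligands, BMP2, BMP4, BMP5, BMP6 and BMP7, and 5 secreted antagonists of BMPs, CHRD (chordin), NOG (noggin), GREM1 (gremlin 1), BMPER (crossveinless-2) and TWSG1 (twisted gastrulation). They were taken by symbol from a table of 35940 symbols, and all 10 were found and passed the filter on low counts. The RNA came from ESI017, a human embryonic stem cell line with an mCitrine reporter on SOX2, grown as colonies on micropatterned glass. Control colonies were kept for 3 days in N2B27, a serum-free basal medium, with no added factor, and their labels give no gate, so they stand as unsorted. Treated colonies received FGF8 at 200 ng/ml together with WNT3A at 100, 300 or 1000 ng/ml in the same medium for 3 days and were split by a cell sorter, on mCitrine, into a SOX2-positive and a SOX2-negative gate. The 12 libraries make 7 groups, with 2 libraries each for control and for either gate at 100 and 1000 ng/ml and 1 library for either gate at 300 ng/ml. All groups share the 1 reporter line, no group had FGF8 or WNT3A alone, no control was sorted, and no library has a stated change of Nodal, the signal that the series title asks about.

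BMPs are secreted growth factors of the TGF-beta family that bind pairs of type I and type II receptors and lead to phosphorylation of SMAD1, SMAD5 and SMAD9, which then enter the nucleus. Chordin, noggin and gremlin bind the ligands outside the cell and keep them from their receptors. BMPER and twisted gastrulation can lower or raise the signal, depending on the ligand, chordin and the proteases that cut chordin. In the gastrulating embryo these genes set up the dorsal-ventral axis and take part in the formation of extraembryonic tissue, mesoderm and surface ectoderm, and in micropatterned stem cell colonies BMP4 is widely used to start germ layer patterning.

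The libraries held 16474856 to 28079048 estimated counts. SOX2 itself stood at 418 to 467 CPM (counts scaled to a common library size, with TMM factors) in the SOX2-positive libraries and at 1.85 to 5.98 CPM in the SOX2-negative ones, as the gates' labels say, and at 652 and 676 CPM in control. Among marker lists, the summed level of 5 definitive endoderm markers was 648 to 1255 CPM in SOX2-negative, 7.30 to 26.9 in SOX2-positive and 3.91 to 7.72 in control libraries, where SOX17 had no count. The summed level of 3 lateral and cardiac mesoderm markers was 220 to 544 CPM in SOX2-negative, 1.19 to 15.2 in SOX2-positive and 8.93 to 11.99 in control libraries. The summed level of 7 surface ectoderm and amnion markers was 233 to 315 CPM in control, where TP63 had no count, 17.3 to 73.9 in SOX2-positive and 163 to 224 in SOX2-negative libraries. In SOX2-negative libraries GATA3 alone gave 140 to 180 CPM of this sum, while TFAP2A was 1.88 to 7.87 CPM (211 and 155 in control) and KRT7 0 to 0.482 CPM (18.2 and 16.4 in control). The summed level of 3 primitive streak markers was 132 to 508 CPM in SOX2-negative, 8.29 to 94.6 in SOX2-positive and 0.965 and 1.06 in control libraries. Among them TBXT, MIXL1 and EOMES were each higher in replicate 1 than in replicate 2, in both gates at 100 and 1000 ng/ml. MIXL1 had 108 and 15.5 CPM in replicates 1 and 2 of SOX2-negative cells at 1000 ng/ml. In SOX2-positive cells at that dose it had 18.9 and 1.72 CPM. A pair of SOX2-negative libraries stood apart from their repeats: replicate 2 at 100 ng/ml had the highest SOX17 (827 CPM), and replicate 2 at 1000 ng/ml had the highest HAND1 (177 CPM) and KDR (271 CPM). The part of these marker shifts in the results on the 10 genes was not tested, and in bulk RNA a change in the share of cells of a type cannot be told apart from a change in RNA per cell.

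Promoter windows of the members are shown as a description of their sequence. The members did not all move together between conditions that differ in FGF8 and WNT3A. In both gates at 100 ng/ml BMP4 was lower and CHRD higher than in control. RefSeq promoter entries on GRCh38.p14 matched 7 of the 10 members, and those of BMP4, BMP5, BMP6 and CHRD include a window of 250 bases before the start with no annotated exon in it. They lie at chr14:53955051-53955300 on the minus strand (BMP4, upstream of one of its internal starts), chr6:55875591-55875840 on the minus strand (BMP5), chr6:7725849-7726098 on the plus strand (BMP6) and chr3:184379804-184380053 on the plus strand (CHRD). They are printed from 5′ to 3′ along the gene, with capitals for the core CTTTG, or CAAAG where it lies on the opposite strand, of the motif bound by the TCF/LEF factors through which WNT acts.
BMP4: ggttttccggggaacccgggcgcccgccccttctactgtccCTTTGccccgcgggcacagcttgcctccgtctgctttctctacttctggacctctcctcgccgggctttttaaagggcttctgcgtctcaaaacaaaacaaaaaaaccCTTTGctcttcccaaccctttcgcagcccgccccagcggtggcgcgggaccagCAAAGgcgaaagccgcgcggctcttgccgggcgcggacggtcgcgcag
BMP5: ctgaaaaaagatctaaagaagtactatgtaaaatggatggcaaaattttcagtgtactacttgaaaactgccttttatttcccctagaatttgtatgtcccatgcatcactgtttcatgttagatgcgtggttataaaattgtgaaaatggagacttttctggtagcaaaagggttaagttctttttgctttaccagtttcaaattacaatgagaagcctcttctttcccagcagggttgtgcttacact
BMP6: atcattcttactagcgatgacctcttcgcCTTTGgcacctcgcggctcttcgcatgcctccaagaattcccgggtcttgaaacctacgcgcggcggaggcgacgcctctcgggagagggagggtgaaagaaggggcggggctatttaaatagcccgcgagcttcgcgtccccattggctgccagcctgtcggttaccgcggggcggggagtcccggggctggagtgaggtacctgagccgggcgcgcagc
CHRD: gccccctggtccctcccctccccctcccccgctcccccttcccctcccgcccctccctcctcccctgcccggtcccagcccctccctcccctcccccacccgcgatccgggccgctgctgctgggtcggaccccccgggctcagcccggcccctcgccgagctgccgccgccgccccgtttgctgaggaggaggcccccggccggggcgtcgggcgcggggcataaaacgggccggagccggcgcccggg
The BMP4 window holds the core 3 times, starting 209, 101 and 48 bases before the start, and the BMP6 window holds it once, 221 bases before the start. The windows of BMP5 and CHRD do not hold these letters, and the core occurs on either strand in 42.1% of 35116 promoter windows of the same length. The palindrome GGCGCC, a GC-rich motif bound by SMAD1 and SMAD5, occurs in 16.4% of all windows, and in those printed it occurs once before BMP4, at 232 bases, and once before CHRD, at 10 bases. The other 2 entries of BMP4 hold neither motif in their windows, nor does that of TWSG1. BMPER has 2 windows, which lie inside the gene, before internal starts, and hold annotated exon sequence of BMPER. In 1 of them the core occurs 2 times, 216 and 158 bases before the start on the opposite strand. That window holds GGCGCC 1 time, at 122 bases, and the other window holds it 2 times, at 123 and 59 bases. GREM1 has the core 1 time, at 192 bases on the opposite strand, and GGCGCC at 83 and 52 bases in 1 of its 2 windows and neither in the other. No match overlapped another. A match of letters is a description of the window and not a site shown to be bound.

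SOX2-negative cells carried more RNA of every one of the 5 ligands than the SOX2-positive cells of the same colonies. In the fit over all genes, which averaged 100 and 1000 ng/ml, 7 of the 10 members were higher in SOX2-negative cells and none was lower, against 24% of all 17047 genes tested that were called in either direction and 12.9% that were called higher. The median log2 fold change was 3.29 over the ligands and 0.64 over the antagonists, and 0.00676 over all genes. Which members were called depended on the library left out. For the members nearest the threshold, the log2 fold change then ran from 0.88 to 1.40 for CHRD and from 0.34 to 0.78 for TWSG1.

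BMP2 (chr20:6767664-6780280, GRCh38) is a ligand close in sequence to BMP4. Its level was 252 and 225 CPM in the SOX2-negative libraries at 100 ng/ml, 302 CPM at 300 ng/ml, and 288 and 252 CPM at 1000 ng/ml. In the SOX2-positive libraries it was 6.99 and 7.13 CPM at 100 ng/ml, 5.51 CPM at 300 ng/ml, and 5.13 and 7.60 CPM at 1000 ng/ml. Control libraries had 11.6 and 15.6 CPM. Every SOX2-negative library was far above every other library, the control lay a little above the SOX2-positive libraries, and nothing overlapped between these 3 sets. BMP2 was 37.7-fold higher in SOX2-negative than in SOX2-positive cells, a log2 fold change of 5.24 ± 0.20 (SE; edgeR quasi-likelihood test, adjusted p = 4.3e-07).

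BMP4 (chr14:53949736-53958761), the ligand with which micropatterned colonies are usually treated, had another order. Control libraries held 62.1 and 53.0 CPM. SOX2-positive libraries held 3.62 and 3.88 CPM at 100 ng/ml, 3.75 CPM at 300 ng/ml, and 7.31 and 6.65 CPM at 1000 ng/ml. SOX2-negative libraries held 11.6 and 21.2 CPM at 100 ng/ml, 19.7 CPM at 300 ng/ml, and 41.4 and 81.1 CPM at 1000 ng/ml. The gates did not overlap. Among the SOX2-negative libraries only replicate 2 at 1000 ng/ml, with 81.1 CPM, reached the level of control, and replicate 1 at that dose, with 41.4 CPM, stayed below it. The gate difference was 2.63 ± 0.26 on the log2 scale, 6.21-fold (edgeR, adjusted p = 4.8e-05).

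BMP7 (chr20:57168748-57266629), a ligand that can pair with BMP2 or BMP4 in heterodimers, stood at 76.4 and 73.8 CPM in control. In SOX2-negative libraries it was 84.0 and 128 CPM at 100 ng/ml, 76.5 CPM at 300 ng/ml, and 66.0 and 64.6 CPM at 1000 ng/ml. In SOX2-positive libraries it was 17.0 and 18.6 CPM, then 12.9 CPM, then 13.3 and 32.1 CPM over the same doses. Only the SOX2-positive libraries were set apart, since control lay within the range of the SOX2-negative libraries. The gate difference was 2.05 ± 0.26 on the log2 scale, 4.13-fold (edgeR, adjusted p = 0.00021).

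BMP5 (chr6:55753645-55875564) and BMP6 (chr6:7726797-7881422), related ligands of the BMP7 group, were scarce. BMP5 had 2 to 13 counts per library in SOX2-positive cells, 0.0992 to 0.588 CPM, and 10 and 44 counts in control, 0.508 and 1.61 CPM. In SOX2-negative libraries BMP5 was 3.11 and 2.01 CPM at 100 ng/ml, 5.57 CPM at 300 ng/ml, and 5.58 and 21.5 CPM at 1000 ng/ml. BMP6 was 0.371 to 1.40 CPM in SOX2-positive libraries, 1.32 and 0.622 CPM in control, and in SOX2-negative libraries 3.47 and 9.14 CPM, then 3.80 CPM, then 6.91 and 14.7 CPM over the rising doses. For both genes the lowest SOX2-negative library was above the highest library of the other groups, and replicate 2 at 1000 ng/ml was the highest of all. The gate differences on the log2 scale were 4.41 ± 0.66 for BMP5 (edgeR, adjusted p = 0.00071) and 3.29 ± 0.55 for BMP6 (edgeR, adjusted p = 0.0014).

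**Figure D1:**
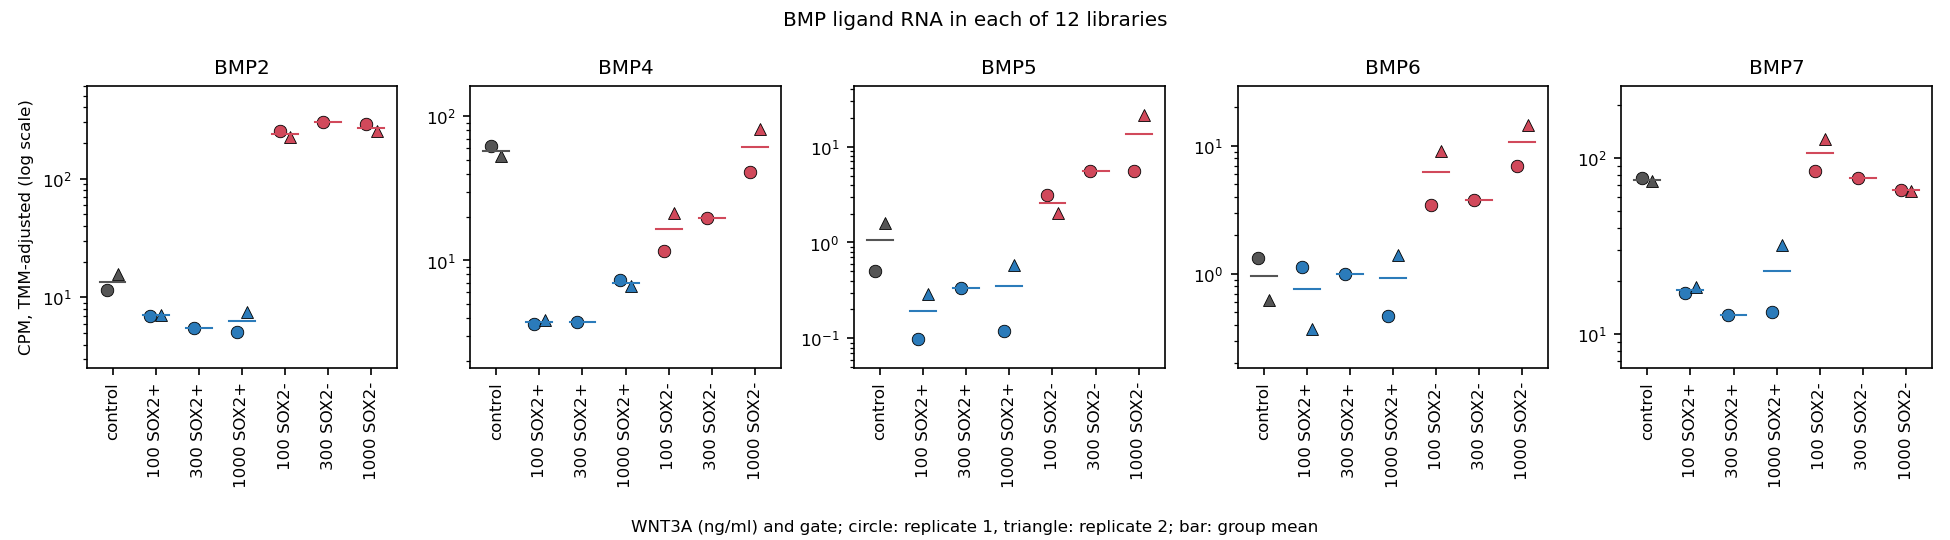
Levels of the 5 ligands in 12 libraries, in TMM-scaled CPM on log axes, by WNT3A dose in ng/ml and gate, with a bar at each group mean. BMP2 in SOX2-negative libraries (225 to 302 CPM) stands above all other libraries, while BMP4 is high in control and in SOX2-negative cells at 1000 ng/ml, and BMP7 is low in SOX2-positive cells alone.

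The antagonists did not move as one group: BMPER and CHRD were higher in SOX2-negative cells, and NOG, GREM1 and TWSG1 did not pass the edgeR test. BMPER (chr7:33904308-34156356), a chordin-related protein that binds BMPs at the cell surface and in the matrix, had 26.0 and 23.7 CPM in SOX2-negative libraries at 100 ng/ml, 44.0 CPM at 300 ng/ml, and 58.5 and 106 CPM at 1000 ng/ml. SOX2-positive libraries had 0.248 and 0.247 CPM at 100 ng/ml, 1.19 CPM at 300 ng/ml, and 1.18 and 1.54 CPM at 1000 ng/ml, and the lowest values rest on 5 and 6 counts. Control libraries had 3.66 and 2.75 CPM, between the gates and apart from both. BMPER was 76.7-fold higher in SOX2-negative cells, 6.26 ± 0.28 on the log2 scale (edgeR, adjusted p = 4.7e-07), which makes it the member with the highest fold change between the gates.

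CHRD (chr3:184380073-184390736), which traps BMPs until a protease cuts it, was low in control at 4.01 and 3.40 CPM. SOX2-positive libraries had 23.8 and 14.4 CPM at 100 ng/ml, 21.9 CPM at 300 ng/ml, and 11.4 and 5.70 CPM at 1000 ng/ml. SOX2-negative libraries had 42.5 and 75.6 CPM at 100 ng/ml, 28.3 CPM at 300 ng/ml, and 13.3 and 12.8 CPM at 1000 ng/ml. All treated libraries lay above control, the gates overlapped across doses, and within each dose the SOX2-negative libraries were the higher ones. The gate difference was 1.12 ± 0.27 on the log2 scale, 2.18-fold (edgeR, adjusted p = 0.012), and without SOX2-positive replicate 2 at 100 ng/ml it was 0.96 with an adjusted p of 0.06 by edgeR. CHRD shares exon sequence with THPO on the opposite strand, and with no strand setting given their reads cannot be separated, although THPO had 0.177 to 3.89 CPM.

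TWSG1 (chr18:9334767-9402420), which forms a complex with chordin and BMP, had the lowest ratio of the highest to the lowest of the 12 libraries among the 10 members, 2.27. Control had 72.0 and 60.4 CPM and SOX2-positive libraries 43.2 to 57.3 CPM. SOX2-negative libraries had 81.0 and 44.6 CPM at 100 ng/ml, 89.7 CPM at 300 ng/ml, and 82.8 and 97.9 CPM at 1000 ng/ml. Of the SOX2-negative libraries, only replicate 2 at 100 ng/ml fell among the SOX2-positive ones. The difference of 0.60 ± 0.20 on the log2 scale, with a 95% confidence interval of 0.15 to 1.04, missed the threshold (edgeR, adjusted p = 0.055). It passed without that library (0.78 on the log2 scale, edgeR, adjusted p = 0.0033). With all libraries it also passed by DESeq2 (adjusted p = 0.025), with no filter on low counts (edgeR, adjusted p = 0.011) and with the 3 doses averaged (edgeR, adjusted p = 0.017).

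NOG (chr17:56593699-56595590) and GREM1 (chr15:32717974-32745107), a pair of antagonists that bind BMP2 and BMP4 tightly, showed no gate difference that passed the test. NOG was 0.495 to 2.94 CPM in SOX2-positive and 0.641 to 2.23 CPM in SOX2-negative libraries, against 3.30 and 2.34 CPM in control. Its gate difference was 0.04 on the log2 scale with a 95% confidence interval of -1.20 to 1.27, so that differences of about 2-fold in either direction lie inside the interval. GREM1 stood at 46.1 and 47.9 CPM in control, at 0.570 to 7.10 CPM in SOX2-positive libraries and at 1.49 to 7.21 CPM in SOX2-negative ones. Every treated library was below control by several fold, and replicate 2 at 1000 ng/ml was the highest library of each gate. The gate difference of GREM1 was 0.64 on the log2 scale with a 95% confidence interval of -0.61 to 1.89. GREM1 is the only member listed under 2 identifiers, among which the counting split its reads (240 and 668 counts in control replicate 1, 499 and 809 in replicate 2), so they were summed.

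**Figure D2:**
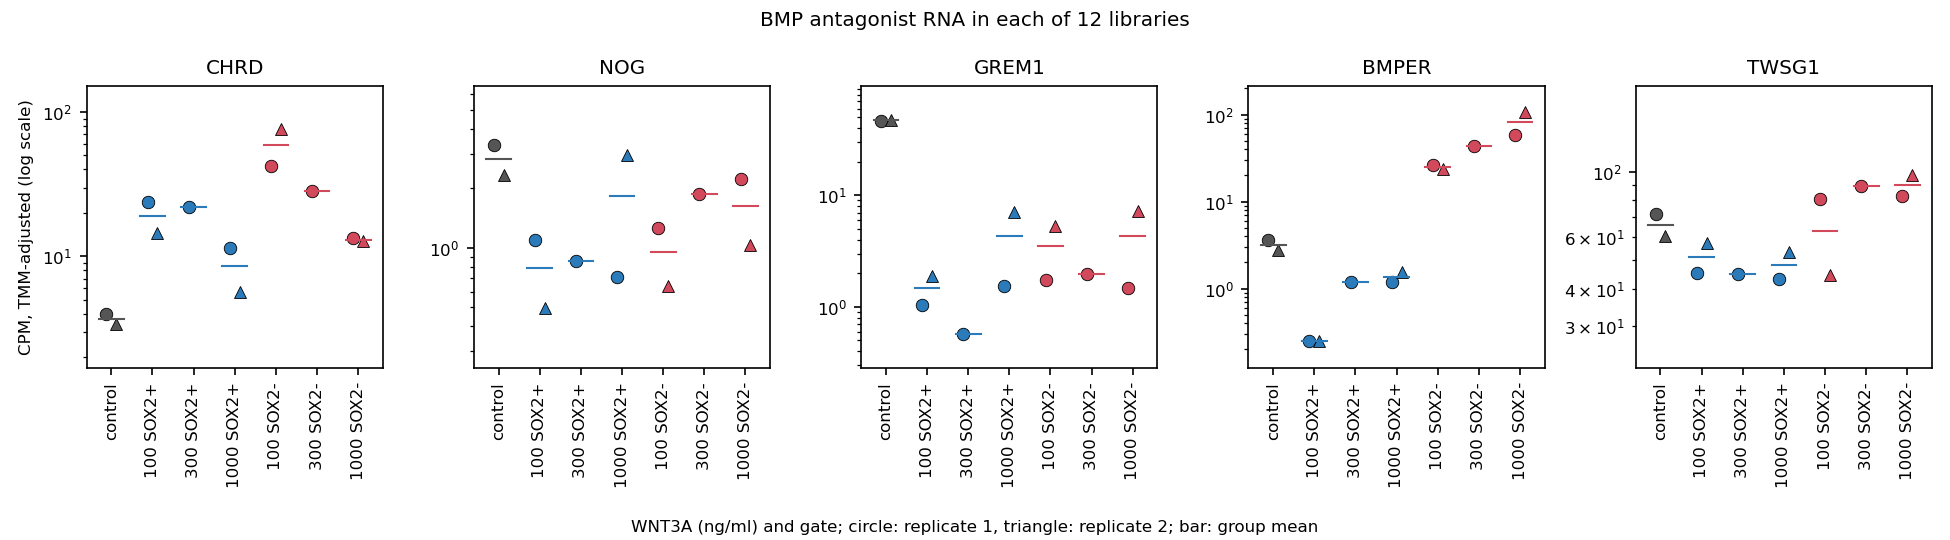
Levels of the 5 antagonists in 12 libraries, in TMM-scaled CPM on log axes, by WNT3A dose in ng/ml and gate, with a bar at each group mean. GREM1 is high in control alone (46.1 and 47.9 CPM), BMPER separates the gates at every dose, and CHRD is lowest in control and lower at 1000 than at 100 ng/ml in both gates.

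Both gates of a dose and repeat were sorted from the same colonies, which gives 5 pairs, the 300 ng/ml pair included. BMP2 was 31.5 to 56.1 times higher in the SOX2-negative library of a pair, and BMPER was 37.0 to 105 times higher. The ratio ran from 3.21 to 12.2 for BMP4, from 2.01 to 6.89 for BMP7, from 6.96 to 47.4 for BMP5 and from 3.04 to 24.6 for BMP6. All 5 ligands, BMPER and CHRD were thus higher in 5 of 5 pairs, although the ratio of CHRD came down to 1.17 in 1 pair. NOG, GREM1 and TWSG1 were higher in 4 of 5 pairs, with lowest ratios of 0.350, 0.972 and 0.779. How many of all genes were higher in 4 or 5 of 5 pairs was not counted, so these counts describe the members alone.

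**Figure D3:**
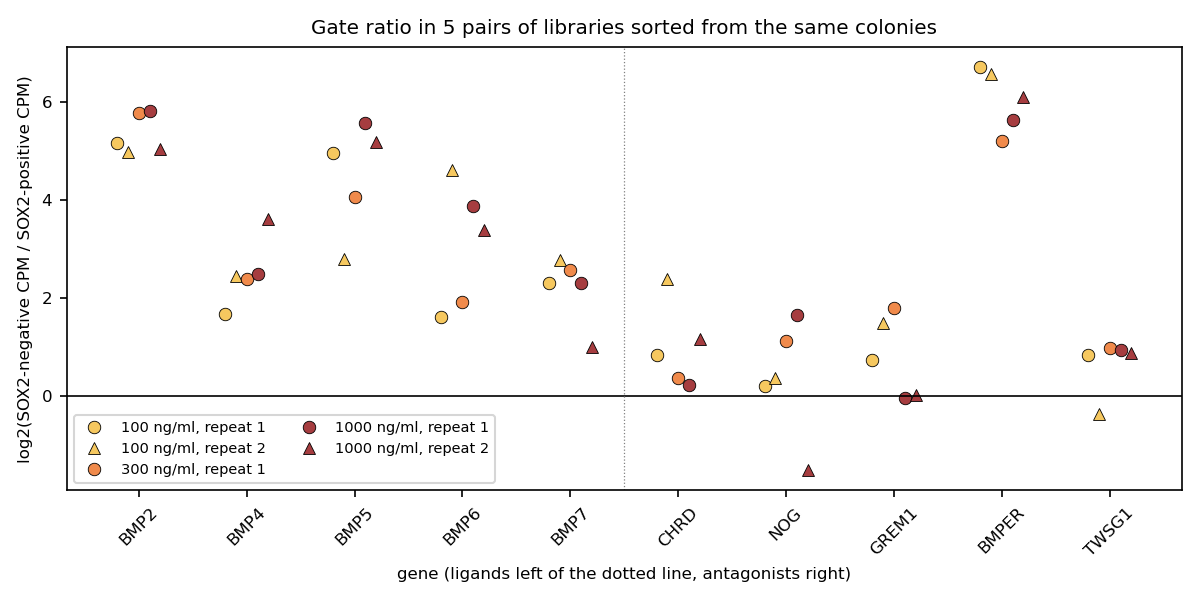
Log2 ratio of the SOX2-negative to the SOX2-positive level, in CPM, for each member in 5 pairs of libraries from the same colonies, marked by WNT3A dose and repeat. The 5 ligands, BMPER and CHRD lie above 0 in all pairs, and BMP2 and BMPER have lowest ratios of 31.5 and 37.0.

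Against control, SOX2-negative cells gained BMP2, BMP6, CHRD and BMPER at both doses tested and had less GREM1. These comparisons use the same 2 control libraries, which were unsorted, so that treatment and sorting cannot be told apart in them. At 100 ng/ml 4 members rose and 2 fell, where 20.6% of all genes were called, 11.9% higher and 8.67% lower. BMP2 rose by 4.13 ± 0.26 on the log2 scale (edgeR, adjusted p = 1.3e-05), CHRD by 4.00 ± 0.43 (edgeR, adjusted p = 0.00014), BMPER by 2.96 ± 0.32 (edgeR, adjusted p = 0.00016) and BMP6 by 2.72 ± 0.75 (edgeR, adjusted p = 0.029). BMP4 fell by 1.80 on the log2 scale, 3.49-fold (edgeR, adjusted p = 0.0054), and GREM1 fell by 3.71, 13.1-fold (edgeR, adjusted p = 0.01). BMP7, BMP5, NOG and TWSG1 had values of 0.50, 1.24, -1.58 and -0.08 that did not pass. The call of BMP6 was lost without control replicate 1 (edgeR, adjusted p = 0.081), control replicate 2 (0.19) or SOX2-negative replicate 2 at 100 ng/ml (0.16), and also when only these groups were fitted (0.052).

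At 1000 ng/ml 5 members rose and 1 fell in SOX2-negative cells against control, where 17.8% of all genes were called, 10.7% higher and 7.1% lower. The rise was 4.31 ± 0.27 on the log2 scale for BMP2 (edgeR, adjusted p = 1.1e-05), 4.69 ± 0.34 for BMPER (edgeR, adjusted p = 1.7e-05), 3.64 ± 0.83 for BMP5 (edgeR, adjusted p = 0.012), 3.49 ± 0.77 for BMP6 (edgeR, adjusted p = 0.0098) and 1.82 ± 0.40 for CHRD (edgeR, adjusted p = 0.01). GREM1 fell by 3.42 on the log2 scale (edgeR, adjusted p = 0.014). BMP4, which fell at 100 ng/ml, had a log2 difference of 0.09 with a 95% confidence interval of -0.66 to 0.85. Only 3 of the 6 calls remained without control replicate 1, when BMP5, CHRD and GREM1 missed the threshold, and 3 remained without control replicate 2, when BMP6, CHRD and GREM1 did. Without SOX2-negative replicate 2 at 1000 ng/ml, BMP5 (2.36 on the log2 scale, edgeR adjusted p = 0.15) and BMP6 (2.82, edgeR adjusted p = 0.076) missed it, and without replicate 1 GREM1 did (edgeR, adjusted p = 0.081). The calls of BMP2 and BMPER held with each of the 10 replicated libraries left out in turn.

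In SOX2-positive cells at 100 ng/ml BMP4, BMP7, GREM1 and BMPER were lower than in control and CHRD was higher. That makes 5 of 10 members called, against 4.22% of all genes, 2.69% higher and 1.53% lower. BMP4 fell by 3.94 on the log2 scale, 15.3-fold (edgeR, adjusted p = 0.0009), BMPER fell by 3.65 (edgeR, adjusted p = 0.0019), GREM1 fell by 4.98 (edgeR, adjusted p = 0.011) and BMP7 fell by 2.08 (edgeR, adjusted p = 0.01), while CHRD rose by 2.37 ± 0.41 (edgeR, adjusted p = 0.0094). BMP2 had -0.95 on the log2 scale and missed the threshold (edgeR, adjusted p = 0.058), which it passed without either SOX2-negative library at 100 ng/ml (edgeR, adjusted p = 0.025). It was also called by DESeq2 (adjusted p = 0.0054), with no filter on low counts (edgeR, adjusted p = 0.011) and in a fit of only the groups compared (edgeR, adjusted p = 0.02). BMP4 and BMPER kept their calls with every replicated library left out in turn. BMP7 and GREM1 missed the threshold without either control library or either SOX2-positive library at 100 ng/ml (edgeR, adjusted p up to 0.11 and 0.12). CHRD missed it without either control library or SOX2-positive replicate 1 at 100 ng/ml (edgeR, adjusted p up to 0.13). This leaves 2 or 3 members called in those fits.

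At 1000 ng/ml 4 members were lower in SOX2-positive cells than in control and none was higher, against 5.6% of all genes called, 3.63% higher and 1.97% lower. BMP4 fell by 3.04 on the log2 scale, 8.24-fold (edgeR, adjusted p = 0.0019), GREM1 by 3.43 (edgeR, adjusted p = 0.036), BMP7 by 1.72 (edgeR, adjusted p = 0.02) and BMP2 by 1.09, 2.13-fold (edgeR, adjusted p = 0.029). BMPER had -1.22 (edgeR, adjusted p = 0.076) and CHRD 1.20 (edgeR, adjusted p = 0.13), and DESeq2 called both (adjusted p = 0.036 and 0.047). Only BMP4 stayed called without either control library or without SOX2-positive replicate 1 at 1000 ng/ml, and BMP4 and BMP7 did without either SOX2-positive library at 100 ng/ml, when BMP2 and GREM1 had adjusted p of 0.051 to 0.059 by edgeR. BMPER passed without SOX2-negative replicate 1 or 2 at 1000 ng/ml (edgeR, adjusted p = 0.04 and 0.043). With the identifiers of GREM1 kept apart, the one in GENCODE 29 had log2 differences of -2.27 to -4.81 over the 4 comparisons against control and passed the test in none of them (edgeR, adjusted p = 0.14 to 0.33). The other identifier passed at 100 ng/ml in SOX2-negative and SOX2-positive cells (edgeR, adjusted p = 0.0071 and 0.042) and missed at 1000 ng/ml (0.062 and 0.13).

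**Figure D4:**
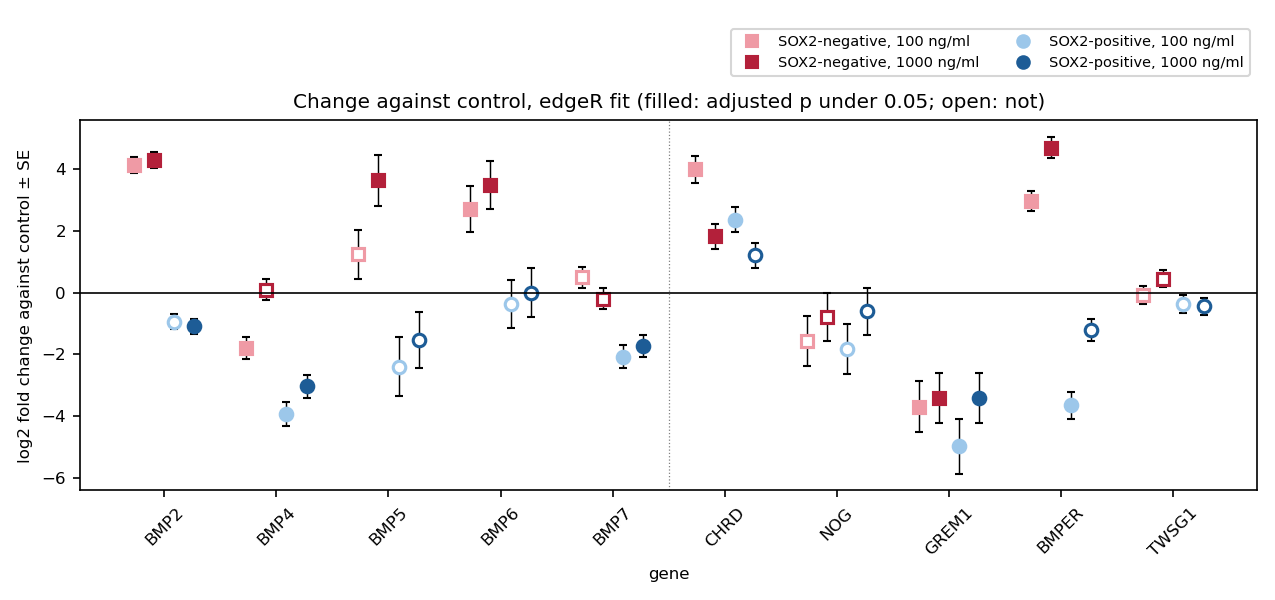
Log2 fold change of each member against control with its standard error, for both gates at 100 and 1000 ng/ml WNT3A, from the edgeR fit, with filled symbols for an adjusted p under 0.05. BMP4 and BMP7 lie below 0 in SOX2-positive cells, BMP2 and BMPER lie above 0 in SOX2-negative cells alone, GREM1 lies below 0 in all 4 comparisons and CHRD above 0 in all 4, and all of them share the 2 control libraries.

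The effect of dose, 1000 against 100 ng/ml, was not resolved by the main test in either gate. In SOX2-negative cells edgeR called 0 of all genes and 0 members (0% called), with 3107 genes and 4 members at an unadjusted p under 0.05, while DESeq2 called 411 genes and 3 members and limma-trend called 0 of each. Those 4 members were BMP4, BMP5, BMPER and CHRD. The level at 1000 ng/ml relative to 100 ng/ml in repeat 1 and repeat 2 was 3.56 and 3.82 for BMP4, 2.25 and 4.49 for BMPER, and 1.79 and 10.7 for BMP5. For CHRD it was 0.314 and 0.169, the only one of the 4 to go down. The log2 differences were 1.90 ± 0.36 for BMP4 (edgeR, adjusted p = 0.12), 1.73 ± 0.30 for BMPER (edgeR, adjusted p = 0.097), -2.18 ± 0.39 for CHRD (edgeR, adjusted p = 0.097) and 2.41 ± 0.78 for BMP5 (edgeR, adjusted p = 0.25). DESeq2 gave adjusted p = 0.00029 for BMP4 and BMPER and 5.4e-05 for CHRD. BMP2 changed by a ratio of 1.14 and 1.12, with a 95% confidence interval of the log2 difference from -0.33 to 0.69.

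Whether the dose effect was called in SOX2-negative cells depended on the method and on the filter. With all libraries and no filter on low counts edgeR called 1552 genes and 4 members. These were BMP4, BMP5, CHRD and BMPER (edgeR, adjusted p = 1.8e-07, 0.00091, 3.5e-09 and 4.7e-06). The call also depended on the SOX2-negative libraries at 100 ng/ml. The chi-square of their counts, divided by its degrees of freedom, was 142, against 22.8 to 52.8 in the other groups with 2 libraries. Without replicate 1 of this group edgeR called 5740 genes and 4 members, BMP4, CHRD, BMPER and TWSG1, with a single library then standing for the dose, and without replicate 2 it called 1 gene and 0 members. At 300 ng/ml the single SOX2-negative library lay between the 2 outer doses for BMPER (44.0 CPM) and CHRD (28.3 CPM), and within the range of 100 ng/ml for BMP4 (19.7 CPM). That library is of repeat 1, so dose and repeat cannot be told apart when it is set against replicate 2. Within repeat 1 BMP4 was 11.6, 19.7 and 41.4 CPM at 100, 300 and 1000 ng/ml.

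In SOX2-positive cells edgeR called 0 genes and 0 members between the doses (0% called), with 293 genes and 3 members at an unadjusted p under 0.05, and DESeq2 called 5 genes and 0 members and limma-trend 0 of each. The 3 members were again BMP4, BMPER and CHRD, with ratios of 2.02 and 1.72 for BMP4, 4.76 and 6.22 for BMPER, and 0.480 and 0.395 for CHRD in the 2 repeats. The direction was the same in both gates and both repeats for these 3 genes. With all libraries and no filter on low counts edgeR called 107 genes and 3 members in SOX2-positive cells. The members called were BMPER, GREM1 and CHRD (edgeR, adjusted p = 0.00042, 0.022 and 0.041), and not BMP4. The difference of the dose effect between gates was called by edgeR for 0 genes and 0 members (0% called; 1349 genes and 0 members at an unadjusted p under 0.05), by DESeq2 for 16 genes and by limma-trend for 0. For BMP4 it was 1.00 on the log2 scale with a 95% confidence interval of -0.12 to 2.12.

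To compare levels between genes, CPM were divided by the length of the merged exons of each gene in kilobases. Summed over the 5 ligands, the level was 51.5 and 47.6 CPM per kb in control, 6.81 to 13.5 in SOX2-positive libraries and 97.4 to 134 in SOX2-negative ones, 3 ranges that did not overlap. BMP2 made up 7.67% ± 2.01 (SD, n = 2) of this sum in control, 20.1% ± 4.25 (SD, n = 4) in SOX2-positive libraries and 62.4% ± 8.84 (SD, n = 4) in SOX2-negative libraries at 100 and 1000 ng/ml. BMP4 made up 55.1% ± 3.21 (SD, n = 2) in control, 27.1% ± 10.0 (SD, n = 4) in SOX2-positive and 15.1% ± 10.1 (SD, n = 4) in SOX2-negative libraries. BMP7 made up 36.0% ± 1.09, 49.1% ± 7.70 and 18.3% ± 7.76 in the same order, as means with SD over the same libraries. The leading ligand per length was thus BMP4 in control, BMP7 in the mean of SOX2-positive libraries and BMP2 in SOX2-negative libraries. Without the division by length BMP7 rather than BMP4 led in control, with 50.6% against 38.8%.

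The 5 antagonists summed to 23.6 and 20.1 CPM per kb in control, 14.1 to 18.1 in SOX2-positive and 35.8 to 48.2 in SOX2-negative libraries. TWSG1 led in control with 70.8% ± 0.90 (SD, n = 2) and in SOX2-positive libraries with 70.3% ± 7.95 (SD, n = 4). In SOX2-negative libraries it held 45.3% ± 11.8 (SD, n = 4), beside 27.2% ± 23.3 for CHRD and 25.1% ± 14.7 for BMPER. These SDs span both doses: CHRD ranged from 7.53% to 57.7% and BMPER from 12.3% to 42.8%. GREM1 held 14.8% ± 2.05 (SD, n = 2) in control, 1.20% ± 1.18 in SOX2-positive and 0.654% ± 0.405 in SOX2-negative libraries. Its merged exons come to 14.6 kb, at most 5.17 kb in the other members, so a shorter transcript in use would make its share larger. With no division by length GREM1 made up 38.4% ± 3.75 (SD, n = 2) of the antagonists' summed CPM in control, 4.17% ± 3.94 (SD, n = 4) in SOX2-positive and 2.21% ± 1.36 (SD, n = 4) in SOX2-negative libraries.

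**Figure D5:**
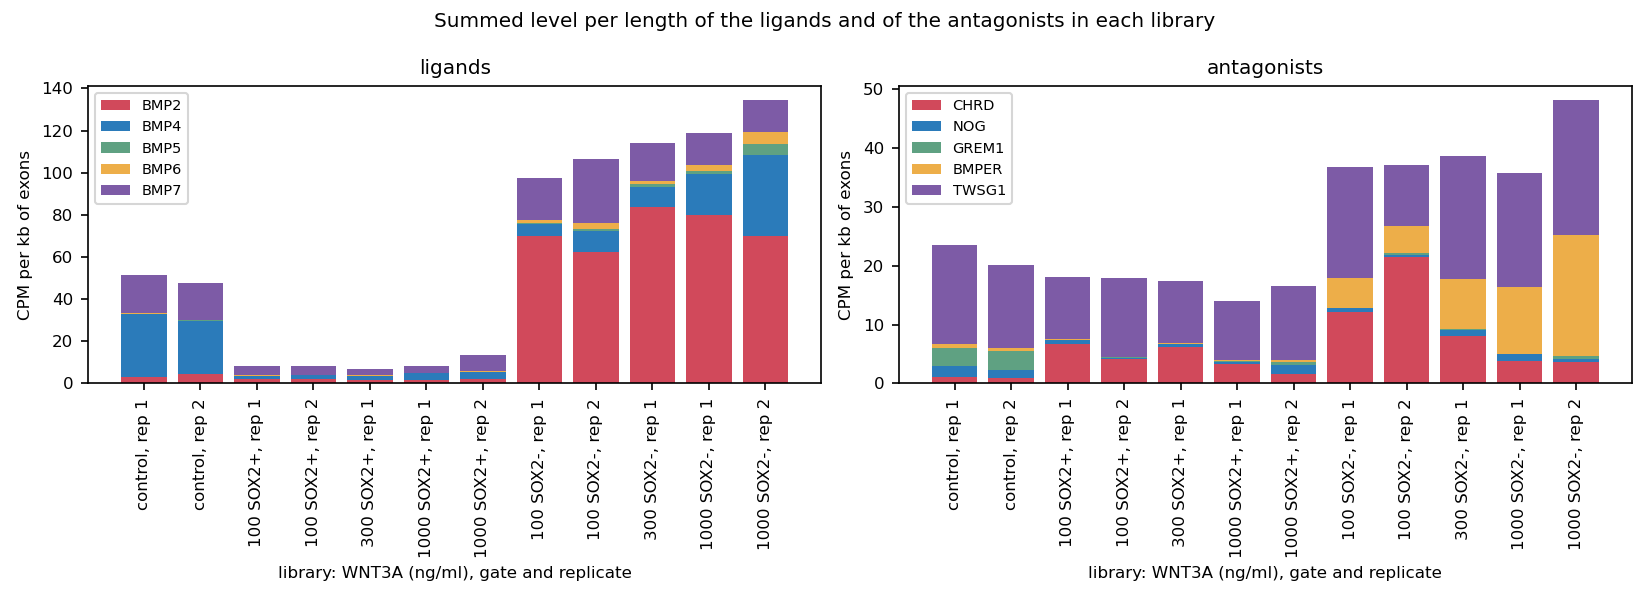
Level per kilobase of exons, in CPM per kb, stacked for the 5 ligands (left) and the 5 antagonists (right) in each of the 12 libraries. The ligand sum is 97.4 to 134 CPM per kb in SOX2-negative libraries and 6.81 to 13.5 in SOX2-positive ones, with BMP2 the main part of the former, and TWSG1 is the main part of the antagonists in control.

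Of the rest of the BMP pathway, 64 of 70 listed genes were tested, and 22 were higher and 8 lower in SOX2-negative than in SOX2-positive cells (12.9% and 11.1% of all genes), with a median log2 fold change of 0.26. Of 10 receptors and co-receptors tested, ACVRL1, BMPR2 and RGMB were higher and BMPR1A was lower. BMPR1A, a type I receptor for BMP2 and BMP4, was 62.7 to 119 CPM in SOX2-negative and 173 to 221 CPM in SOX2-positive libraries, with no overlap (log2 fold change -1.11 ± 0.16, edgeR, adjusted p = 0.00052). BMPR2, the type II receptor, was 34.6 to 93.5 CPM and 37.6 to 51.0 CPM (0.72 ± 0.22, edgeR, adjusted p = 0.035), and replicate 2 at 100 ng/ml was again the SOX2-negative library that overlapped. The type I receptors ACVR1 (0.20) and BMPR1B (1.23) did not pass the test.

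Among 15 listed BMP response genes, which the pathway induces in various tissues, 11 were higher and 1 lower in SOX2-negative cells. Of all genes, 12.9% were called higher and 11.1% lower. The median of the 15 genes was 1.96 on the log2 scale. SMAD6, which inhibits BMP signalling within the cell, was 210 to 450 CPM in SOX2-negative and 15.05 to 36.1 CPM in SOX2-positive libraries (3.76 ± 0.19, edgeR, adjusted p = 6.5e-07). SMAD7 (2.23 ± 0.31, edgeR, adjusted p = 0.00046) and the decoy receptor BAMBI (2.06 ± 0.20, edgeR, adjusted p = 4e-05) were higher too. The ID genes, direct targets of phosphorylated SMADs, moved less: ID1 by 0.64 ± 0.21 (edgeR, adjusted p = 0.044), ID3 by 0.76 ± 0.25 (edgeR, adjusted p = 0.049), and ID2 (0.32) and ID4 (0.59, edgeR, adjusted p = 0.092) did not pass. The gates overlapped for ID1 and ID3. ID1 had 530 and 881 CPM at 100 ng/ml, 490 at 300 ng/ml and 471 and 320 at 1000 ng/ml in SOX2-negative libraries, against at most 375 CPM in SOX2-positive ones. ID3 was 267 to 693 CPM in SOX2-negative and 177 to 329 CPM in SOX2-positive libraries. SOX2-negative replicate 2 at 100 ng/ml was the highest library for both genes. The transcription factors TBX3 (6.32 ± 0.47, edgeR, adjusted p = 6.2e-06), HAND1 (5.59 ± 0.69, edgeR, adjusted p = 0.00019), MSX1 (5.31 ± 0.35, edgeR, adjusted p = 3.5e-06) and GATA3 (4.91 ± 0.27, edgeR, adjusted p = 1.1e-06) showed the highest fold changes of this list. HAND1 and TBX3 also stand in the lateral and cardiac mesoderm list and GATA3 in that of surface ectoderm and amnion, so these rises are not separate from the marker values given above.

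A pair of the response genes, the transcription factors DLX5 and TFAP2A of early surface ectoderm, was high in control. DLX5 was 75.0 and 67.8 CPM in control and at most 1.18 CPM in every treated library. TFAP2A was 211 and 155 CPM in control, 5.28 to 42.1 CPM in SOX2-positive and 1.88 to 7.87 CPM in SOX2-negative libraries, and it was the 1 gene of this list called lower in SOX2-negative than in SOX2-positive cells. SOX2-positive cells at 100 ng/ml had 7 of the 15 response genes lower than control and none higher (1.53% and 2.69% of all genes), DLX5 by -8.79 and GATA3 by -4.47 on the log2 scale among them (edgeR, adjusted p = 0.00026 and 0.00037). At 1000 ng/ml 4 were lower, against 1.97% of all genes, and 1, BAMBI, was higher, against 3.63% (1.33 ± 0.28, edgeR, adjusted p = 0.022). SOX2-negative cells had 8 higher and 3 lower at 100 ng/ml, against 11.9% and 8.67% of all genes, and 8 higher and 2 lower at 1000 ng/ml, against 10.7% and 7.1%.

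Other secreted antagonists moved in both directions: among those tested, CER1 and KCP were higher and CHRDL1 and FST lower in SOX2-negative cells. CER1, an inhibitor of Nodal and BMP made by anterior endoderm, was 3.46 to 214 CPM in SOX2-negative libraries, lowest in replicate 2 at 100 ng/ml, and 0 to 9.61 CPM in SOX2-positive ones (5.72 ± 1.24, edgeR, adjusted p = 0.0069). CER1 also counts among the endoderm markers. FST, follistatin, was 121 and 149 CPM in control, 47.3 to 60.3 CPM in SOX2-positive and 14.8 to 27.9 CPM in SOX2-negative libraries, 3 ranges without overlap (gate difference -1.20 ± 0.20, edgeR, adjusted p = 0.0013). Among 9 genes listed for the cutting and processing of chordin and BMPs, the proteases BMP1, which cuts chordin, FURIN and PCSK6 were higher, and SFRP2 and OLFML3, secreted proteins that are not themselves proteases, were lower. BMP1 was 27.1 to 32.7 CPM in SOX2-negative and 9.52 to 17.0 CPM in SOX2-positive libraries (1.19 ± 0.19, edgeR, adjusted p = 0.00098). Of 9 other ligands tested, GDF6 was higher and GDF3 and GDF11 lower in SOX2-negative cells.

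The genes nearest in pattern to the most abundant ligand and antagonist were found as the lowest root mean square difference of centred log2(CPM + 1) over the 12 libraries, among 14309 genes with a mean of at least 1 CPM. For BMP2 these were CXCR4 (0.338), CCKBR (0.405), COL9A2 (0.462), FAM89A (0.507) and COL2A1 (0.508). CXCR4, a chemokine receptor found on definitive endoderm, averaged 85.8 CPM in SOX2-negative, 2.14 CPM in SOX2-positive (both at 100 and 1000 ng/ml) and 5.45 CPM in control libraries. For TWSG1 they were ZMIZ1 (0.124), SERINC1 (0.130), ROBO1 (0.133), PAN3 (0.136) and TET2 (0.143), and the means of each in control and the 2 gates differed by less than 2-fold. The libraries fall into a few groups, so these distances mostly compare group levels.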

How the data were processed

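Poly-A RNA was sequenced as paired ends, per the labels' protocols, and Salmon and GRCh38 are named without version per the submitters' processing notes. The authors deposited estimated counts per gene, not scaled between libraries. Rows with the same symbol were summed (37951 identifiers, 35940 symbols) and rounded. The strand setting and annotation release are not given in the sources used here. GENCODE 29 gave coordinates and exon lengths.

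edgeR 4.0.16 (R 4.3.3) tested 17047 genes in 1 model of 7 group means, with TMM scaling, filterByExpr (minimum count 10, minimum total 15), the two-sided quasi-likelihood test and Benjamini-Hochberg adjustment over all of them (threshold 0.05). Standard errors and intervals were derived from its F statistic. CPM are TMM-scaled. DESeq2 1.42.0, limma 3.58.1, other scalings and filters, other groupings and each replicated library left out were alternatives. The members, lists and tests were chosen with earlier results of these data known. Named genes were all members, fixed pathway genes and up to 4 called genes per list and comparison with the highest absolute fold change. Not every gene chosen this way is reported here.

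Replicate 2 is described as a biological repeat, so the tests reflect only the variation among repeats of 1 line. Both gates of a dose and repeat share colonies, which pairs them, and the main fit did not use this pairing. The fit with the repeat as a block took the repeat number across all groups, control included, and not the pairs of gates within a dose. Deviations of same-numbered libraries correlated at -0.06 to 0.22 over 10 pairs of groups, across genes. Chi-square per degree of freedom was 22.8 to 142 between repeats, so each counted as 1 replicate. On simulated data edgeR recovered 56% of genes changed 2-fold and 93% of those changed 4-fold between gates (16460 genes), and 37% and 87% between the SOX2-positive gate at 100 ng/ml and control (16470 genes). In the simulation genes of like level shared the same spread, equal in all groups, and few genes were changed. The real groups differed in spread, so these rates do not give the power for the members. Depth was 16474856 to 28079048 estimated counts.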

Additional observations from a re-analysis of the deposited data

How the results depend on the processing

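Over 80 log2 fold changes of the members, 1449 values under alternatives kept direction and side of the threshold in 1339 cases, passed it newly in 31, no longer passed in 42 and changed sign in 37, none of the last with an adjusted p under 0.05 by either value. Only the groups compared, as the fit, gave 1798 genes for SOX2-negative cells at 100 ng/ml against control (3515 in the main fit), 2832 for SOX2-positive cells at 100 ng/ml (719), 2188 at 1000 ng/ml (954) and 1 for the dose in SOX2-negative cells (0). DESeq2 gave 1375, 1614, 411 (3 members), 5 for the dose in SOX2-positive cells and 16 for the difference between gates. No filter on low counts gave 1607, 1799, 1552 (4 members), 107 (3 members) and 308, in the same order as for DESeq2. Identifiers kept apart gave 1 gene for the dose in SOX2-positive cells and 1 for the difference between gates. With the repeat as a block, 1 gene was called for the dose in SOX2-negative cells, and no call on a member and no other count by over 1.5 times changed.

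With each replicated library left out in turn, genes called ran from 2638 (without SOX2-positive replicate 2 at 100 ng/ml) to 6835 (without SOX2-negative replicate 1 at 100 ng/ml) between gates. Against control they ran from 1410 to 6994 and from 1397 to 4675 (3 to 6 members) in SOX2-negative cells at 100 and 1000 ng/ml, and from 85 to 1509 (2 to 6 members) and 128 to 1803 (1 to 5 members) in SOX2-positive cells. For the dose in SOX2-negative cells they ran from 0 to 5740 (0 to 4 members) and for the difference between gates from 0 to 3794 (0 to 1 member). A lone library left in a group was assumed to vary like the other groups.

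Signs changed as follows. Between gates, NOG had -0.0334 with column totals, -0.0401 with the repeat as a block and -0.32 to 0.72 with a library left out, and GREM1 -0.15 to 1.40. Against control, the ranges with a library left out were -0.59 to 0.29 for TWSG1 and -0.49 to 0.49 for BMP4 in SOX2-negative cells at 100 and 1000 ng/ml, -1.35 to 0.26 for BMP6 in SOX2-positive cells at 100 ng/ml, and -1.01 to 0.61 for BMP6 (0.0489 with column totals) and -1.99 to 0.0577 for NOG at 1000 ng/ml. For the dose they were -1.27 to 1.34 for GREM1 (-1.86 with identifiers apart) in SOX2-negative cells, and in SOX2-positive cells -0.46 to 0.10 for BMP2, -0.73 to 1.83 for BMP5, -0.65 to 1.35 for BMP6, -0.42 to 0.85 for BMP7, -0.15 to 1.89 for NOG and -0.25 to 0.10 for TWSG1. For the difference between gates they were -0.57 to 1.43 for BMP6, -1.10 to 0.94 for NOG and -2.82 to 0.24 for GREM1.

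Without division by length, BMP4 made up 38.8% of the ligands in control and 16.7% in SOX2-positive libraries, BMP7 50.6% and 59.3%, and in control CHRD made up 3.01% and TWSG1 53.8% of the antagonists. With the longest transcript as the length, chosen after seeing the data, CHRD made up 4.38% and TWSG1 73.3% in control. With 2 libraries a group, and 2 to 31 counts per library for BMP5 and BMP6 in SOX2-positive cells, only large changes of the scarce members can be resolved. The cause of these shifts was not tested, apart from fits with fewer samples.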
